A study of Mus musculus with 6 samples.

Results

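The miRNA precursors mir-101a and mir-101b (mmu-mir-101a and mmu-mir-101b) were followed in retinas of mice with a deletion of Dicer1 aimed at rods. Dicer1 is the RNase that makes mature miRNAs from their hairpins. The members are the 2 rows of those names among 855 precursors in the deposited small RNA table. They were taken by name, with earlier results of these data known. The retinas came from mice 4 weeks old on a mixed C57BL/6J - SJL background, and there were 3 libraries per genotype, each from a pool of 6 retinas. All mice carried floxed Dicer alleles (Dicerfl/fl). The control libraries came from mice without the iCre75 transgene (iCre75-) and the cKO libraries from mice with it (iCre75+), a line known to drive Cre recombinase from a rod opsin promoter. Cells other than rods therefore kept Dicer1 by design, and the whole retina was sequenced. Dicer1 mRNA was not analysed here, and the genotype labels are taken as given.

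The miR-101 family is conserved in vertebrates and abundant in brain and retina. It is best known for pairing with the mRNA of EZH2, the methyltransferase of the Polycomb repressive complex, as described in human prostate cancer cells. In mouse hippocampal neurons it is also known to restrain network excitability through several target mRNAs. A miRNA recognises its targets mainly by its seed, bases 2 to 8 counted from its 5′ end.

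The mature sequences are shown because the family members differ by very few bases, which bears on how far their values are separate measurements. They are from RefSeq (GRCm38.p6), 5′ to 3′, with the seed in capitals.
miR-101a-3p: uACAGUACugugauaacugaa
miR-101b-3p: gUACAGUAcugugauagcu
miR-101c: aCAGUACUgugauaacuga
miR-101a-5p: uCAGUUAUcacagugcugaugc
miR-101b-5p: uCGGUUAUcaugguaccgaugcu
The 3′ arms of mir-101a and mir-101b are annotated with start points 1 base apart, so the same run of letters gives different seeds, and mir-101c, a further precursor of the table, starts 1 base later than mir-101a. Placed on the mir-101b hairpin, the 21 bases of miR-101a-3p differ at a single base, A16G, counted from the 5′ end of miR-101a-3p with its base first. On the mir-101c hairpin they differ at U1C and A21U.

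The hairpins are shown with the annotated 3′ arm in capitals, since the deposited values are per hairpin and join both arms.
Mir101a hairpin: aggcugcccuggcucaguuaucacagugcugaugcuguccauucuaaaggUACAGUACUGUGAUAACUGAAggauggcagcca
Mir101b hairpin: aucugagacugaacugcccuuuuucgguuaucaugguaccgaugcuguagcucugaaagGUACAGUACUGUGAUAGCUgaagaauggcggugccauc
In GRCm38.p6 the Mir101a hairpin of 83 bases lies on chromosome 4 from 101346945 to 101347027 on the minus strand, within exon 2 of the long noncoding RNA E130102H24Rik. The Mir101b hairpin of 97 bases lies on chromosome 19 from 29135279 to 29135375 on the plus strand, in an intron of Rcl1 on the same strand, a gene known for its part in ribosomal RNA maturation. The deposited values were made on mm9, and no coordinate was carried from one build to the other. The longest run shared by the hairpins was 20 bases for mir-101a and mir-101b, and 19 bases for mir-101a and mir-101c.

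The target known for the family holds its seed match in mouse as well. The 3′ UTR of mouse Ezh2 (chromosome 6, minus strand, GENCODE M21, 402 bases) was searched on the sense strand for GTACTGT, the complement of the miR-101a-3p seed, which is in capitals in the stretches below.
Ezh2 site at 59 to 65: cttcaggaaccttgaGTACTGTgggcaatt
Ezh2 site at 114 to 120: ttctgaatttgcaaaGTACTGTaacagtaa
Positions count from the first base after the stop codon. At least 1 such match was found in 2.71% of 15297 protein-coding genes over the first 402 bases of their longest 3′ UTR, and 2 or more in 8 genes (0.0523%). The complement of the miR-101b-3p seed as annotated, TACTGTA, overlaps the second site from 115 to 121 and was found in 3.33% of the genes. These matches are descriptions of the sequence, and Ezh2 mRNA was not analysed here.

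The libraries held 5480940 to 7478237 reads, totals worked out from the steps of the values, and at these depths 1 read was worth 1.61 to 2.20 RPKM for mir-101a and 1.38 to 1.88 RPKM for mir-101b. RPKM is the number of reads scaled to the precursor's length and to the library's total. The sensory and photoreceptor miRNAs of the miR-183 cluster marked the tissue as retina: mir-182 alone took 53.2 to 57.4% of control and 27.7 to 33.8% of cKO reads. The rest of the cluster overlapped between the groups. Levels of mir-183 were 230841 to 466232 RPKM in control and 287485 to 389297 RPKM in cKO libraries. Those of mir-96 were 9088 to 14568 and 7098 to 10441 RPKM. Despite this overlap mir-96 fell as deposited (log2 -0.49, limma adjusted p = 0.048), as did 1.74% of the tested precursors. The change of mir-183 did not pass (-0.11, limma adjusted p = 0.68). Because every value is relative to its library's total, the shift of mir-182 enters every comparison of levels. The median log2 fold change, cKO minus control, of the 461 precursors that were tested (mean level 10 RPKM or more) was 0.74. Markers of other cells were higher in cKO libraries too: the red cell list (mir-451a, mir-144 and mir-486, 3 of 3 tested) summed to 16553 to 19359 RPKM in control and 26668 to 31080 RPKM in cKO libraries, and endothelial mir-126 stood at 5495 to 8953 and 17256 to 18854 RPKM. Most of the red cell sum was mir-486 (means of 17373 and 28839 RPKM), and mir-144 alone overlapped between the groups. The inner retina list (mir-181a-2, mir-9-2, mir-125b-1) and the pigment epithelium list (mir-204, mir-211) were also higher in every cKO library, with mir-9-2 at 56503 to 74156 and 98379 to 107763 RPKM. Of all tested precursors, 71.6% had all cKO above all control libraries. After the median-of-ratios scaling described below, log2 fold changes were 1.6e-04 for mir-486, -0.019 for mir-181a-2, -0.011 for mir-9-2 and -0.029 for mir-125b-1. They were 0.64 for mir-126, 0.37 for mir-451a, 0.22 for mir-204 and 0.23 for mir-211. The whole miR-183 cluster fell after this scaling, as did 9.98% of the tested precursors. Its values were -1.59 for mir-182, -0.84 for mir-183 and -1.22 for mir-96 (limma adjusted p = 7.0e-05, 0.040 and 0.0042). Sums over the muscle list (557 to 970 and 938 to 1466 RPKM, 2 of 3 tested) and the lens and cornea list (2398 to 54284 and 25331 to 63265 RPKM) overlapped between the groups. No marker was at 0 throughout, and the part of these cells in the results below was not tested.

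Both members were well expressed, and mir-101a was the more abundant. By mean level mir-101a was 55th and mir-101b 79th of the 461 tested precursors. In level per length mir-101a stood between mir-92a-2 and mir-143, and mir-101b between mir-25 and mir-375.

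Levels of mir-101a were 19750.5, 26299.7 and 24351 RPKM in control 1 to 3 and 23812, 28425 and 29783 RPKM in cKO 1 to 3. The lowest cKO library lay below 2 control libraries, so the groups overlapped. The control mean was 23467 ± 3363 RPKM and the cKO mean 27340.3 ± 3130.1 RPKM (SD, n = 3 each). The log2 fold change of 0.22 (SE 0.15, 95% interval -0.10 to 0.55) did not pass the threshold of 0.05 (limma, Benjamini-Hochberg adjusted p = 0.19). Counting error was smaller than the spread between libraries: the share of mir-101a in control 1 was 0.164% of library reads (12259 reads, Wilson 95% interval 0.161 to 0.167%) and in control 2 it was 0.218% (15049 reads, 0.215 to 0.222%). Such intervals describe the counting of reads and nothing else, because amplified reads that carry no molecular identifier are not independent molecules.

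Levels of mir-101b were 8981, 11175 and 10754 RPKM in control 1 to 3 and 12294, 14587 and 14912 RPKM in cKO 1 to 3. All 3 cKO libraries lay above all 3 control libraries. As deposited, mir-101b rose 1.35-fold, from 10303 ± 1164 to 13931 ± 1427 RPKM (SD, n = 3 each), or 0.44 on the log2 scale (SE 0.14, 95% interval 0.12 to 0.75; limma adjusted p = 0.019). A rise of this kind was the common case, since 69.4% of the tested precursors rose by the same test and 71.6% had all cKO above all control libraries, while 1.74% fell. The call ended without cKO 2 (log2 0.40, adjusted p = 0.079), without cKO 3 (0.38, adjusted p = 0.085) and without a filter on low values (adjusted p = 0.059). In whole retina, fewer cells of a type and less RNA per cell cannot be told apart.

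**Figure D1:**
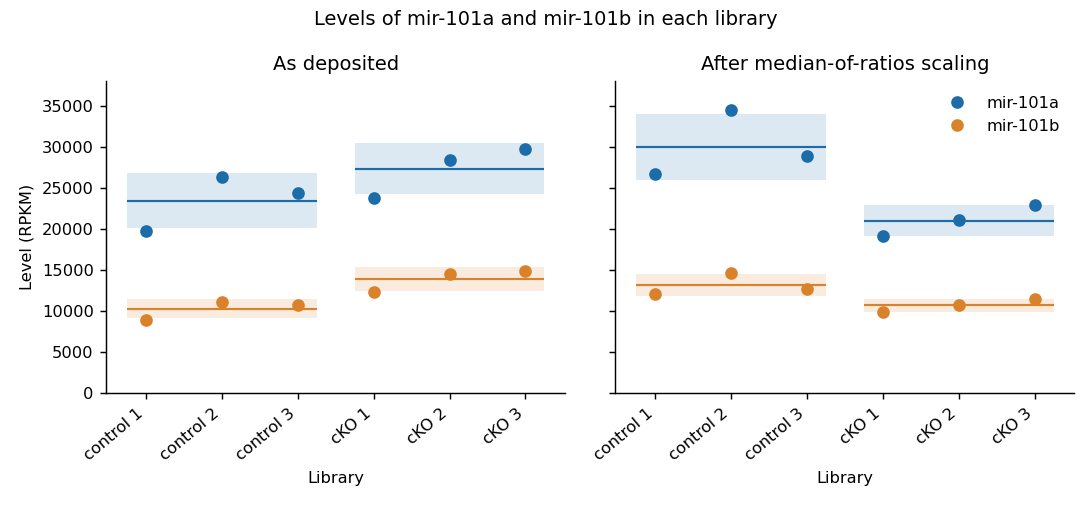
Levels of mir-101a (blue) and mir-101b (orange) in each library, in RPKM, as deposited (left) and after median-of-ratios scaling (right). Points are libraries, lines group means and bands ± 1 SD (n = 3 each); as deposited all mir-101b values of cKO lie above control, and after the scaling both precursors lie lower in cKO than in control.

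Set against the other precursors, both members stood in the lower part of the shift. Of the 461 tested precursors, 404 had a higher log2 fold change than mir-101a and 361 had a higher one than mir-101b. Their distances from the median fold change were -0.52 and -0.30 on the log2 scale.

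Scaling by median-of-ratios factors, under which a typical precursor has the same level in every library, turned the direction of both. Scaled levels of mir-101a were 26650.3, 34481 and 28857 RPKM in control 1 to 3 and 19145, 21069.9 and 22884 RPKM in cKO 1 to 3. Every cKO library then lay below every control library. After this scaling mir-101a fell by 0.51 on the log2 scale (SE 0.13, 95% interval -0.80 to -0.22; limma adjusted p = 0.032), where 9.98% of the tested precursors fell and 2.17% rose. That call held without control 1 (-0.59, adjusted p = 0.015) and ended without control 2 (-0.40, adjusted p = 0.10), control 3 (-0.53, 0.064), cKO 1 (-0.44, 0.099), cKO 2 (-0.51, 0.11) or cKO 3 (-0.57, 0.064).

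Scaled levels of mir-101b were 12119, 14651 and 12744 RPKM in control 1 to 3 and 9884, 10812 and 11457 RPKM in cKO 1 to 3. The groups again did not overlap, as in 20% of all tested precursors in this direction. The log2 fold change of -0.30 (SE 0.12, 95% interval -0.57 to -0.02) did not pass the threshold (limma adjusted p = 0.16).

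Other scalings gave signs below 0 as well, without a call. With totals that left out the 10 most abundant precursors, mir-101a stood at -0.29 (adjusted p = 0.11) and mir-101b at -0.075 (adjusted p = 0.65). With totals that left out mir-182 reads alone they stood at -0.40 (adjusted p = 0.057) and -0.19 (adjusted p = 0.29). With quantile normalization they stood at -0.16 (adjusted p = 0.31) and -0.31 (adjusted p = 0.084). The sign of either precursor's change thus depended on the scaling, while the median of the tested precursors lay above both members in all 5 settings. A single factor per library moves all precursors alike and keeps this order. Of the scalings tried, only quantile normalization could have changed it.

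**Figure D2:**
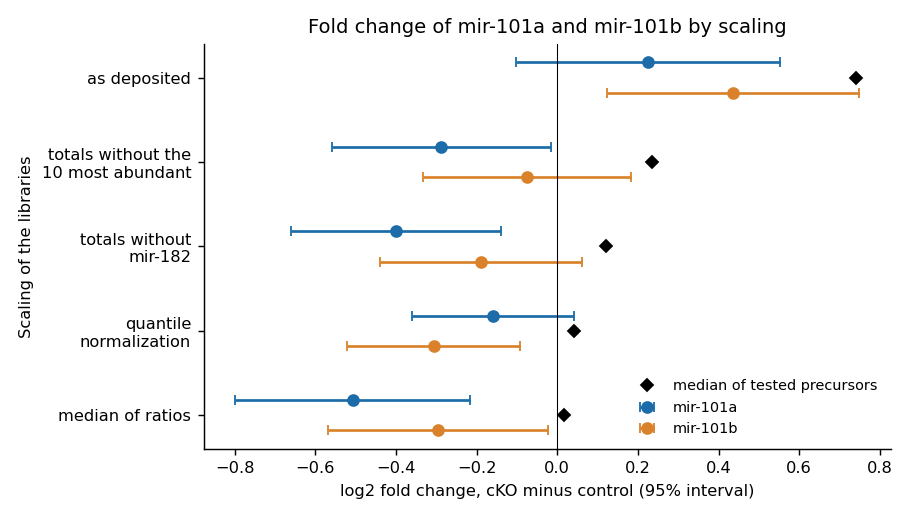
log2 fold change (cKO minus control) of mir-101a (blue) and mir-101b (orange) with limma 95% intervals under 5 scalings of the libraries, and the median of the tested precursors (black diamonds). Both lie above 0 as deposited and below 0 under the other 4 scalings, and in each setting the median lies to their right. Only quantile normalization could have changed their place relative to the median, since the other scalings move all precursors alike.

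The ratio between precursors within a library does not depend on the total or on any single factor per library. The ratio of mir-101a to mir-101b in RPKM was 2.20, 2.35 and 2.26 in control 1 to 3 and 1.94, 1.95 and 2.00 in cKO 1 to 3. All cKO libraries lay below all control libraries. The mean ratio of 2.27 ± 0.0775 in control compared with 1.96 ± 0.032 in the cKO (SD, n = 3 each), a difference of -0.21 on the log2 scale. By an exact two-sided permutation of libraries p was 0.1, the smallest that 3 against 3 libraries allow (0.19 after Benjamini-Hochberg adjustment over 15 ratios). Other ratios of the 15 parted the groups in the same way, among them those of mir-101a to mir-137 and to mir-98. A gap of this kind was thus not particular to this pair.

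The ratio of mir-101b to mir-101c was likewise higher in every cKO library (0.869 to 0.917) than in every control library (0.746 to 0.773; exact two-sided permutation p = 0.1, adjusted 0.19, n = 3 each). By contrast the ratio of mir-101a to mir-101c was 1.64 to 1.76 in control and 1.73 to 1.78 in cKO retina, with overlapping groups (exact two-sided permutation p = 0.7, n = 3 each). In reads, mir-101a held 1.82 to 1.97 times the reads of mir-101c in every library. The mir-101c row itself had a control mean of 13634 ± 1481 RPKM and a cKO mean of 15679 ± 1999 RPKM (SD, n = 3 each; log2 0.20, limma adjusted p = 0.23; -0.53 after median-of-ratios scaling, adjusted p = 0.023). Reads summed over the 831 precursors with a known length came to 1.54 to 1.55 times the library totals in control and 1.76 to 1.85 times in cKO libraries. This is more than counting each read at a single precursor allows, and it differed between the groups. How many of the reads of mir-101a, mir-101b and mir-101c are the same reads cannot be told apart from these values. The annotated miR-101c lies whole within miR-101a-3p, so the ratios of mir-101b to these precursors may rest on the same reads.

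**Figure D3:**
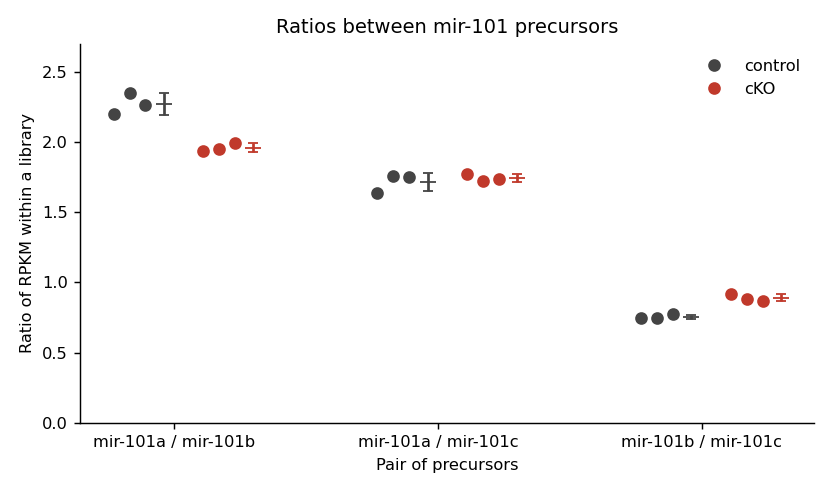
Ratios of RPKM within each library between mir-101a, mir-101b and mir-101c, for control (grey) and cKO (red); points are libraries and bars the mean ± SD (n = 3 each). The groups part in both ratios that involve mir-101b and overlap in that of mir-101a to mir-101c.

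A list of 12 precursors of other miRNAs for which Ezh2 or EZH2 has been described as a target was set beside the members. It holds mir-26a-1, mir-26a-2 and mir-26b, mir-137, both copies of mir-138, mir-214, mir-217, mir-98 and the 3 copies of mir-124. Of the 11 that passed the filter of 10 RPKM, 8 rose as deposited, none fell and 3 did not pass, all of them copies of mir-124 (median log2 fold change 0.52, against 0.74 and 320 of 461 risers over all tested precursors). After median-of-ratios scaling 2 of the 11 rose and 3 fell, against 10 (2.17%) and 46 (9.98%) of all 461, with a median of -0.21 against 0.018. The 11 fall into 7 groups of near-identical copies, so these are not 11 separate measurements.

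The members of the list moved in different ways. Both copies of mir-138, a miRNA of neurons, rose as deposited (mir-138-2 at 1.54, limma adjusted p = 1.7e-04) and after the scaling (0.81, adjusted p = 0.0026). The abundant mir-26a-2, whose gene lies in an intron of a Ctdsp phosphatase gene, rose by 0.52 as deposited (adjusted p = 0.0036) and stood at -0.21 after the scaling (adjusted p = 0.21). The pan-neuronal mir-124-3 stood at -0.071 as deposited (adjusted p = 0.68) and fell by 0.80 after the scaling (adjusted p = 0.0047). The less abundant mir-137 and mir-217 rose by 1.05 and 0.97, and mir-98 of the let-7 family by 0.64, as deposited (adjusted p = 0.0057, 9.2e-04 and 0.0017), and none of these 3 passed after the scaling. The precursor mir-214, with 5.27 to 6.44 RPKM in the control libraries and 6.63 to 15.8 RPKM in those of the cKO, was below the filter.

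**Figure D4:**
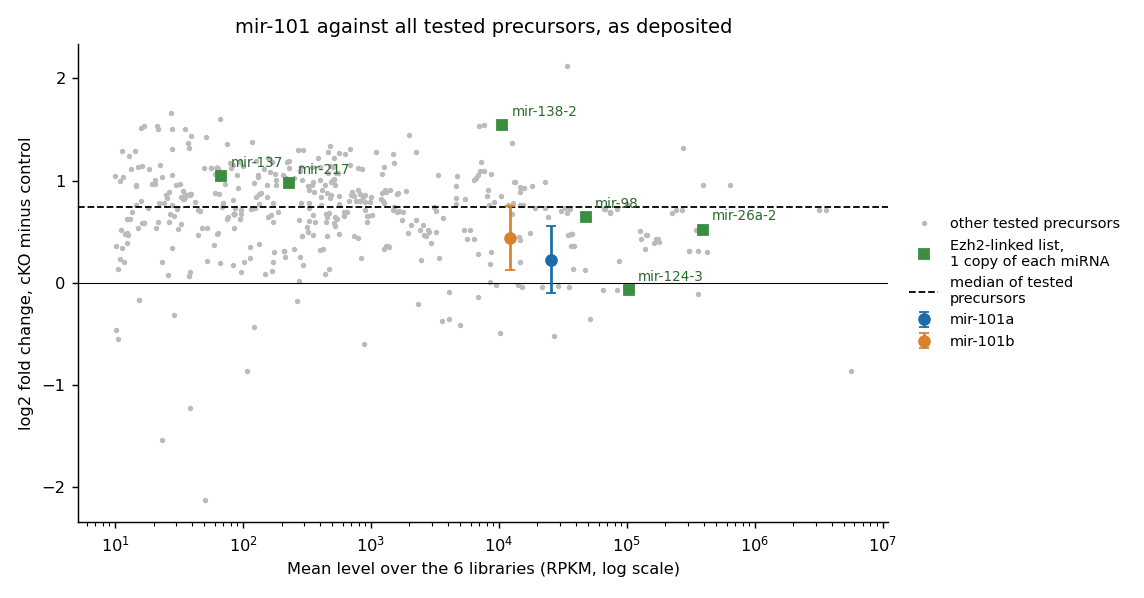
log2 fold change (cKO minus control, as deposited) against mean level in RPKM (log axis) for 461 tested precursors, with mir-101a and mir-101b (limma 95% intervals). Green squares are mir-26a-2, mir-137, mir-138-2, mir-217, mir-98 and mir-124-3 of the Ezh2-linked list. The other precursors of that list are not marked. Both members lie between 0 and the median of 0.74 (dashed line), below mir-26a-2 and mir-138-2 and above mir-124-3.

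Ratios within a library set the members directly against this list. The ratio of mir-101a to mir-26a-2 averaged 0.0724 ± 0.0044 over the control and 0.0589 ± 0.0038 over the cKO libraries (SD, n = 3 each), lower in every cKO library (exact two-sided permutation p = 0.1). The ratio of mir-101b to mir-26a-2 was 0.0309 to 0.0329 in control and 0.0287 to 0.0316 in cKO retina, with overlapping groups (exact two-sided permutation p = 0.2, n = 3 each). Against mir-138-2 both ratios were lower in every cKO library. The level of mir-101a was 3.78 to 5.37 times that of mir-138-2 in control and 1.65 to 1.90 times in cKO retina. For mir-101b it was 1.67 to 2.28 and 0.847 to 0.949 times. As deposited, mir-138-2 had the 4th highest log2 fold change of the tested precursors (1.54, against a median of 0.74). A precursor with the median change would also fall against mir-138-2, so these lower ratios do not set the members apart. How many other precursors had such a gap between the groups was not counted. Per length, in RPKM, mir-101b exceeded mir-138-2 in each control library and lay below it in each cKO library. In reads, which are not divided by hairpin length, it held 2.28 to 3.12 times the reads of mir-138-2 in control and 1.16 to 1.30 times in cKO libraries, and so exceeded it in all 6. Against mir-124-3 the ratio of mir-101b was higher in every cKO library (0.112 to 0.163, against 0.0927 to 0.107), while that of mir-101a overlapped (exact two-sided permutation p = 0.3, n = 3 each). By log2 fold change as deposited, mir-124-3 was 437th from the top of the 461 tested precursors (-0.071, against a median of 0.74). A precursor with the median change would also rise against mir-124-3, so the higher ratio does not set mir-101b apart. None of the 15 ratios could reach p below 0.1.

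Seed matches to the listed miRNAs were also looked up in the Ezh2 3′ UTR. It held 1 match for miR-26a-5p (TACTTGA), 1 for miR-138-5p (CACCAGC), 1 for miR-98-5p (CTACCTC) and 2 for miR-217-5p (ATGCAGT). No letters matching the seeds of miR-137-3p (AGCAATA) or miR-214-3p (CCTGCTG) were in this window. Over the same window length these motifs were found in 2.46 to 7.99% of the 15297 genes. The sequence of miR-124 was not searched.

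By profile over the 6 libraries, each on the log2(RPKM + 1) scale and centred on its own mean, the precursors most like mir-101a were mir-101c, mir-210, mir-339, mir-27a and mir-374c, at Euclidean distances of 0.090 to 0.19 among 306 precursors whose mean reached 100 RPKM. Those most like mir-101b were mir-532, mir-26a-1, mir-26a-2, mir-26b and mir-320, at 0.15 to 0.17. The closest profile to mir-101a was thus that of mir-101c, whose annotated mature sequence lies whole within miR-101a-3p. These rows may share reads, so their likeness is not a separate result. The precursor mir-101b was not among the 5 closest. Its hairpin differs inside that stretch (A16G), and whether this bears on its profile was not tested. For mir-101b, 3 of the 5 closest were miR-26 precursors.

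No other mature mouse miRNA in the RefSeq table carried the same seed as the 3′ arm of either member. Seeds 1 base away were those of miR-144-3p, miR-323-3p and miR-1912-3p for miR-101a-3p, and of miR-582-5p and miR-3618-3p for miR-101b-3p. For the 5′ arms they were those of miR-137-5p and miR-154-5p, beside each other's. The red cell miRNA mir-144 is shown, with its seed in capitals, because it is often grouped with miR-101.
miR-144-3p: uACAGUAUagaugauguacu
Its levels were 24.3, 46.2 and 30.04 RPKM in control 1 to 3 and 30.6, 50.4 and 96.8 RPKM in cKO 1 to 3, and the groups overlapped (log2 0.70, SE 0.41; limma adjusted p = 0.14). Leaving out each library gave log2 fold changes from 0.27 (without cKO 3, limma adjusted p = 0.52) to 1.09 (without cKO 1, limma adjusted p = 0.023). Only the fit without cKO 1 passed, and with all libraries 69.4% of the tested precursors rose. At means of 33.5 and 59.3 RPKM mir-144 lay far below both members, and its longest run shared with the mir-101a hairpin was 7 bases. Of the other seed relatives, mir-582 had mean levels of 757 and 1118 RPKM in control and cKO retina, mir-323 of 333 and 788 RPKM and mir-154 of 85.2 and 178 RPKM, while mir-1912 was listed at 0 in all libraries but cKO 3.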

How the data were processed

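Small RNAs of 6 libraries of mouse retina were analysed. The authors deposited RPKM values, 1 per hairpin, for 855 precursors. Bowtie and the mm9 build are named per the submitters' processing notes. Its version, the miRNA annotation, filters and the handling of multiply mapping reads: not given in the sources used here. RPKM times the RefSeq precursor length gave whole reads for 100% of 4986 values (831 precursors with a length, tolerance 0.01 reads), and with them library totals. All libraries were sequenced in a shared run. The labels call the libraries biological replicates without saying which mice entered which pool, so p-values measure the spread between these pools.

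The test across precursors was limma 3.58.1, run under R 4.3.3 (a linear model with trended empirical Bayes variance) on log2(RPKM + 1). The test was two-sided, of cKO minus control, and covered the 461 precursors whose mean reached 10 RPKM, with Benjamini-Hochberg adjustment over all 461. Median-of-ratios factors came from tested precursors above 0 in every library. Fold changes on this scale understate changes of low precursors. Ratios were tested by exact permutation of libraries (scipy 1.17.1); figures used matplotlib 3.10.9. Near-identical groups link hairpins that match over 20 bases with up to 1 mismatch. The fit was tested on simulated data. Members and lists were chosen with earlier results of these data known. Besides the members, the text names other mir-101 precursors, the Ezh2-linked list, relatives by seed, the 5 precursors most like each member, neighbours in level, mir-182 and the cell type markers. Leaving out libraries after median-of-ratios scaling, and the replicate block there, were added after seeing the data.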

Additional observations from a re-analysis of the deposited data

How the results depend on the processing

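Scaling turned the sign of mir-101a (0.22 as deposited) to -0.51 with median-of-ratios, -0.16 with quantile, -0.29 with totals without the 10 most abundant and -0.40 with totals without mir-182. It turned mir-101b (0.44 as deposited) to -0.30, -0.31, -0.075 and -0.19, and mir-101c (0.20) to -0.53, -0.50, -0.31 and -0.43, in the same order. Median-of-ratios scaling also turned mir-144 to -0.013, mir-26a-1 and mir-26a-2 to -0.21 each, mir-26b to -0.21 and mir-98 to -0.087, and totals without mir-182 turned mir-26a-1 and mir-26a-2 to -0.10 each and mir-26b to -0.11. Without control replicate 2 mir-124-1, mir-124-2 and mir-124-3 stood at 0.023, 0.024 and 0.023, and without control replicate 1 mir-124-2 and mir-124-3 stood at -0.23 each.

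The number of precursors that rose and fell, 320 and 8 as deposited, was 10 and 46 with median-of-ratios scaling, 12 and 29 with quantile normalization, 57 and 29 with totals without the 10 most abundant, 20 and 36 with totals without mir-182, and 198 and 7 with near-identical precursors summed. The number that fell was 4 with a filter of 100 RPKM and 14 with array weights. Leaving out each library gave 252 to 322 that rose and 4 to 12 that fell.

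Leaving out each library gave log2 fold changes of 0.10 to 0.32 for mir-101a and 0.34 to 0.52 for mir-101b, and after median-of-ratios scaling -0.59 to -0.40 and -0.35 to -0.22. The log2 difference of the mir-101a to mir-101b ratio ran from -0.24 to -0.19. Without a filter mir-101b stood at 0.44 and no longer passed. Summed with mir-101b and mir-101c, mir-101a stood at 0.27 (adjusted p = 0.12), and mir-101b then has no value of its own.

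Same-numbered libraries correlated in their deviations from the group means at 0.19, 0.26 and 0.0093, so the numbers were not taken as pairs, and not every library correlated best with its own number. With the replicate number as a block, the log2 fold changes of mir-101a and mir-101b were 0.22 (adjusted p = 0.11) and 0.44 (adjusted p = 0.011), the ratio differed by -0.21, 338 precursors rose and 10 fell. After median-of-ratios scaling with the block they stood at -0.51 and -0.30. No call of a member changed with the block. Read depth limited the members' values less than the spread between libraries did.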
